A study of Mus musculus with 18 samples.

Results

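The response of neural progenitors without Hoxb1 to SAG was read from 6 of the 18 libraries of the series, chosen by their labels: 3 libraries of neural progenitors differentiated in the presence of SAG and 3 of neural progenitors differentiated without it. SAG is a small molecule that binds and activates Smoothened, the membrane protein through which hedgehog signals enter the cell. The cells of both groups were derived from mouse embryonic stem cells of strain C57BL/6, were labelled as not expressing Hoxb1, and had no doxycycline listed among their treatments. The series as a whole asked what Hoxb1, an anterior Hox gene, does in neuromesodermal and in neural progenitors, and the 6 libraries used here are the SAG comparison on the side without Hoxb1. The sources used here do not give the dose and duration of SAG or the line or clone of each culture. Nor do they say whether the 3 libraries of a group came from separate cultures, so that p-values measure the spread between these libraries, which may be technical. In the labels, the libraries with SAG carry the numbers 2533 to 2535 and those without SAG 7390 to 7392. Every library with SAG in the series belongs to the range from 2533 to 2538. SAG and library set therefore cannot be told apart in any result below, and a change "with SAG" is a difference between these 3 libraries and those 3.

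In the neural tube, Sonic hedgehog from the notochord and floor plate forms a gradient that is high ventrally. Progenitors read its level through Patched and Smoothened and the GLI transcription factors, and switch on ventral transcription factors or lose dorsal ones according to that level. Dorsally, the roof plate sends WNT and BMP signals. Patched and the inhibitor Hhip are induced by the signal and dampen it, and Gli1 is a widely used readout of it, while Gli3 acts mostly as a repressor in the absence of the ligand.

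With SAG, most tested floor plate genes were higher (15 of 19), and most intermediate (11 of 14) and dorsal or roof plate genes (15 of 23) were lower. Of all tested genes, 36.5% were called higher and 36.3% lower. The floor plate factor Foxa2 was 9.07-fold higher, the p3 progenitor factors Nkx2-2 and Nkx2-9 10.7-fold and 28.7-fold higher, and the dorsal factors Pax3 and Pax7 16.3-fold and 149-fold lower. Ptch1, a hedgehog receptor induced by the signal, rose 2.22-fold, whereas Gli1 and Hhip did not pass the test. Midbrain, interneuron, proneural and amino acid stress genes were mostly lower, and cholesterol synthesis, collagen, BMP and Nodal pathway genes mostly higher.

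The change was broad. Of 16238 tested genes, 11810 were called at an adjusted p under 0.05 (72.7%), 5921 of them higher with SAG (36.5%) and 5889 lower (36.3%), by edgeR's quasi-likelihood test with Benjamini-Hochberg adjustment. A change of at least 2-fold among called genes was found in 2418 genes (14.9%), of which 1212 were higher (7.46%) and 1206 lower (7.43%). The 3 libraries of one group lay wholly above the 3 of the other in 12167 genes (74.9%). The median log2 change over all tested genes was 0.01. Each count below has to be read against these shares. In what follows, rose and fell mean called at this threshold, levels are counts scaled to the effective library size (CPM), and a change is on the log2 scale, SAG minus no SAG.

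The libraries with SAG were deeper, with 22682012 to 26974315 total counts compared with 13589876 to 13976829 without. The mitochondrially encoded share of counts was 1.20% to 1.30% with SAG and 0.933% to 0.960% without. The first principal component of the 6 libraries held 87.0% of the variance and separated the groups. Neural progenitor markers were expressed in both groups: Sox1, Sox2, Sox3, Nes, Pax6 and Hes5 summed to 1354 to 1471 CPM without SAG and 1072 to 1105 CPM with SAG. Hoxb1 itself was near absent, at 0.369, 0.668 and 0.0725 CPM without and 0.519, 0.397 and 0.51 with SAG (log2 change 0.35, SE 0.45, adjusted p = 0.49), and was not called.

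Among the feedback genes of the hedgehog pathway, Ptch1 rose while Gli1 and Hhip did not pass the test. Ptch1 (ENSMUSG00000021466, chromosome 13, 63511533 to 63565520, minus strand), the main receptor and a brake on Smoothened, stood at 254, 285 and 304 CPM without and 618, 637 and 619.6 with SAG (log2 change 1.15, SE 0.0405, adjusted p = 6.16e-19). The libraries of the groups did not overlap. Gli1 (ENSMUSG00000025407, chromosome 10, 127329889 to 127341589, minus strand) stood at 146, 163 and 164 CPM without and 132, 154 and 142 with SAG. Its groups overlapped and the log2 change of -0.14 (SE 0.086) was not called (adjusted p = 0.161). With the replicate number as a block, with all 18 libraries in the fit, or with the 6 libraries alone, the small decrease of Gli1 was called (adjusted p = 0.000384, 0.0466 and 0.0245). Hhip (ENSMUSG00000064325, chromosome 8, 79966115 to 80058006, minus strand), a secreted protein that binds hedgehog ligands, stood at 23.4, 33.6 and 31.7 CPM without and 29.4, 29.8 and 30.5 with SAG, with a log2 change of 0.02 (SE 0.082, adjusted p = 0.876). The library without SAG numbered 1 was the lowest of the 6 for Hhip, and without it the change was -0.14 (adjusted p = 0.0543). Per length, with the summed exon length as the length, Ptch1 went from 65.3 to 145 RPKM (RPKM, CPM divided by length in kilobases), Gli1 from 43 to 38.9 RPKM and Hhip from 6.04 to 6.11 RPKM, so that Ptch1 was the most abundant of the 3 in both groups.

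Among 12 tested genes of hedgehog ligands and reception, 3 rose and 8 fell, 2 and 3 of them at least 2-fold, with a median log2 change of -0.48. Shh (ENSMUSG00000002633, chromosome 5, 28456815 to 28467101, minus strand), the ligand made by the floor plate, stood at 40, 37 and 37.3 CPM without and 152, 137 and 144 with SAG (log2 change 1.92, SE 0.0458, adjusted p = 3.35e-32), every library with SAG being above every library without. Scube3, a secreted protein that releases lipid-bound ligand, rose as well (31.4 ± 1.6 to 83.3 ± 1.44 CPM, SD, n = 3 and 3). Ihh and Dhh, the other ligands, were below the count filter at means of 0.22 to 0.459 CPM and 0.393 to 0.186 CPM. The ligand-binding coreceptors fell together. Boc stood at 151, 150.3 and 150.3 CPM without and 18.7, 19.6 and 17.5 with SAG (log2 change -3.01, SE 0.0459, adjusted p = 8.5e-39). Gas1 was at 111, 95.9 and 101 CPM without and 13.5, 12 and 12.4 with SAG (log2 change -3.02, SE 0.0566, adjusted p = 7.12e-36), and Cdon went from 43.6 ± 3.44 to 24.1 ± 0.417 CPM (a log2 change of -0.85, adjusted p = 2.28e-14). Boc and Gas1 were 8.08-fold and 8.14-fold lower with no overlap between groups. Smo, the protein SAG binds, was nearly level at 199, 197 and 207 CPM without and 215, 209 and 216 with SAG (log2 change 0.09, SE 0.0316, adjusted p = 0.0128). It lost its call without the libraries without SAG numbered 1 or 2, without the library with SAG numbered 3, or with all 18 libraries in the fit (adjusted p = 0.0804, 0.136, 0.0630 and 0.0540).

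Downstream of Smoothened, 14 genes of signal transduction were tested, of which 2 rose and 8 fell, and the 2 that fell at least 2-fold were GLI factors. Gli2, the main GLI activator, stood at 85.5, 104 and 102 CPM without and 45.3, 43 and 40.7 with SAG (log2 change -1.17, SE 0.0662, adjusted p = 1.51e-11). Gli3, the main GLI repressor, stood at 189, 185 and 191 CPM without and 57.1, 55.3 and 57.1 with SAG (log2 change -1.74, SE 0.0367, adjusted p = 4.68e-34). Both were lower in every library with SAG than in any without, and Gli3 by more (3.34-fold against 2.25-fold, a difference that was not tested). Sufu, which holds GLI proteins in the cytoplasm, went from 79.9 ± 3.76 to 78.9 ± 0.235 CPM and was not called (adjusted p = 0.68). Evc2, a Smoothened partner at the ciliary base, fell from 56.7 ± 3.79 to 38.9 ± 0.771 CPM. Spop, an adaptor for GLI breakdown, and Prkaca, a catalytic subunit of protein kinase A, rose by 0.25 and 0.16 on the log2 scale. Hedgehog signals pass through the primary cilium, and of 16 tested genes of its transport and base 10 fell and 1 rose, none by as much as 2-fold. Dync2h1, the motor of return transport, went from 47.9 ± 3.15 to 26.5 ± 1.22 CPM and Kif3a, part of the outward motor, from 175 ± 1.41 to 97.4 ± 3.64 CPM.

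**Figure D1:**
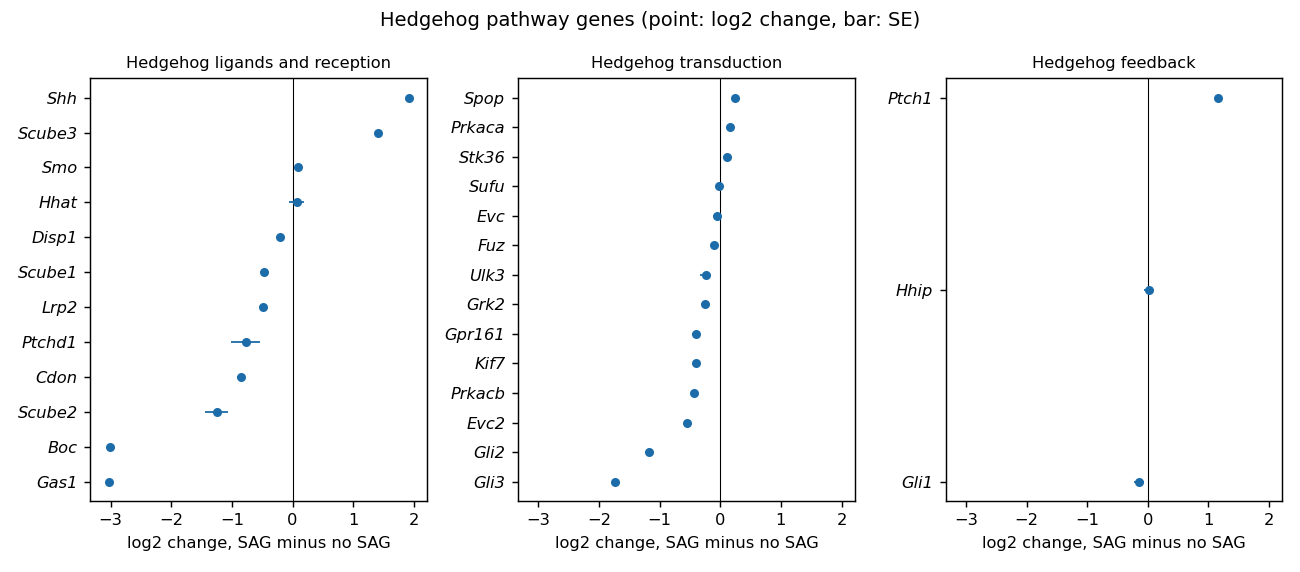
Log2 change with SAG (SAG minus no SAG, horizontal axis) of tested genes of hedgehog ligand and reception, transduction and feedback, with the standard error from the test as a bar. Shh and Ptch1 lie to the right of 0, Boc, Gas1, Gli2 and Gli3 to the left, and Gli1 (-0.14) and Hhip (0.02) close to it.

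The ventral domains were described from 19 tested floor plate genes, 5 genes of the p3 domain and its V3 neurons, and 5 of motor neuron progenitors. Of the floor plate genes, 15 rose and 2 fell, 8 of them at least 2-fold higher and none at least 2-fold lower (median 0.89). Foxa2 (ENSMUSG00000037025, chromosome 2, 148042877 to 148046969, minus strand), the factor that sets floor plate identity, stood at 9.59, 9.43 and 8.04 CPM without and 84, 79.8 and 81.7 with SAG (log2 change 3.18, SE 0.0642, adjusted p = 9.67e-35). Its relative Foxa1 went from 18.9 ± 1.87 to 71.3 ± 0.757 CPM. Of secreted floor plate products, Ntn1 (netrin 1, which attracts commissural axons) rose from 355 ± 13.5 to 1275 ± 26.8 CPM, Spon1 from 158 ± 6.52 to 416 ± 2.17 CPM and Slit1 from 93.1 ± 3.79 to 211 ± 9.71 CPM. Lmx1b, a midbrain floor plate and serotonergic factor, fell from 89.2 ± 1.09 to 51.6 ± 1.79 CPM while Lmx1a was not called (15.9 to 17.5 CPM, adjusted p = 0.0851). Foxa1 and Foxa2 are also endoderm genes. The endoderm markers Sox17, Gata4, Gata6 and Afp summed to 2.10 to 3.02 CPM without SAG and 6.42 to 7.87 CPM with it, Afp with 1 count in 1 library and 0 in the other 5. The part of endoderm cells in the Foxa1 and Foxa2 values was not tested.

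In the domain next to the floor plate, Nkx2-2 (ENSMUSG00000027434, chromosome 2, 147177546 to 147194243, minus strand), which marks p3 progenitors, stood at 6.34, 9.13 and 9.42 CPM without and 90.9, 88.3 and 87.1 with SAG (log2 change 3.42, SE 0.0697, adjusted p = 1.34e-34). Of its exon bases, 9.70% overlap Nkx2-2os on the other strand. Nkx2-9 (ENSMUSG00000058669, chromosome 12, 56611389 to 56613284, minus strand), its partner there and in the floor plate, stood at 0.516, 1.26 and 1.09 CPM without and 28.9, 27.4 and 26.5 with SAG (log2 change 4.84, SE 0.138, adjusted p = 1.98e-29). The groups lay far apart for both genes. Sim1, a factor of V3 neurons, was low but rose from 1.4 ± 0.202 to 3.07 ± 0.322 CPM, whereas Uncx, also listed for V3 neurons, fell from 32.8 ± 1.44 to 6.0 ± 0.427 CPM (a log2 change of -2.44, adjusted p = 4.76e-28). For the motor neuron progenitor domain, Nkx6-1 (ENSMUSG00000035187, chromosome 5, 101658139 to 101665226, minus strand), a factor of ventral progenitors in this and neighbouring domains, stood at 16.1, 16.1 and 19.6 CPM without and 80.6, 80.3 and 80.6 with SAG (log2 change 2.22, SE 0.0524, adjusted p = 2.45e-32). Nkx6-2 stood at 33.3, 47.3 and 56 CPM without and 109, 109 and 108 with SAG (log2 change 1.25, SE 0.131, adjusted p = 1.9e-05), with a wider spread without SAG. Of its exon bases, 12.9% overlap a gene on the other strand. Olig2 (ENSMUSG00000039830, chromosome 16, 91225550 to 91228677, plus strand), the defining factor of this domain, did not follow Nkx6-1: it stood at 35.2, 35.7 and 38.8 CPM without and 30.6, 32.3 and 33.8 with SAG (log2 change -0.18, SE 0.0551, adjusted p = 0.0036), 1.13-fold lower. The fall lost its call without the library without SAG numbered 3 (adjusted p = 0.0532). Olig1, its neighbour, rose from 10.1 ± 2.1 to 17.8 ± 0.465 CPM, and Sp8, which was listed with this domain and also marks forebrain and dorsal cells, fell from 96.4 ± 15.7 to 11.4 ± 0.459 CPM.

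**Figure D2:**
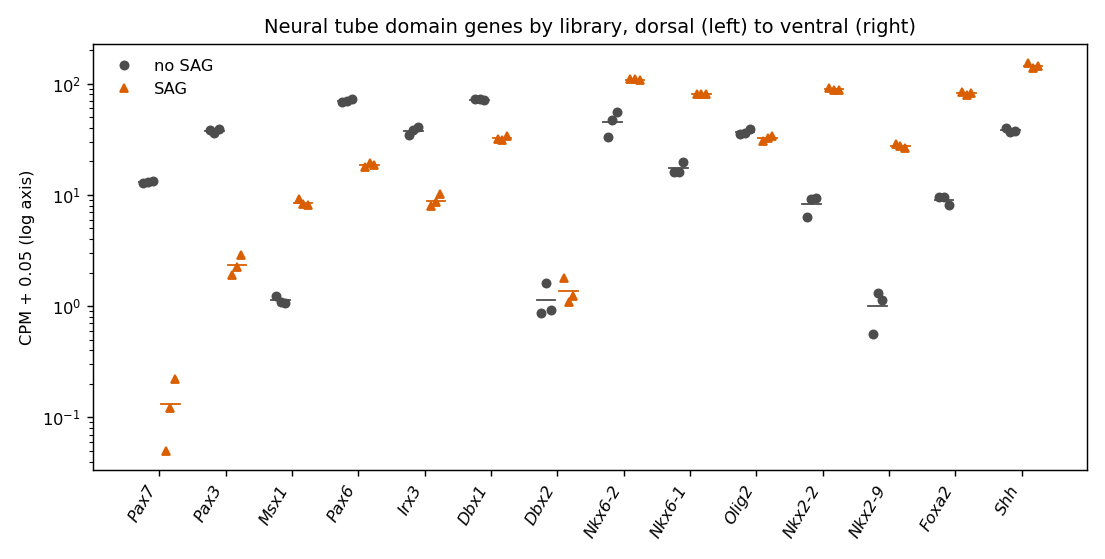
Level of 14 neural tube domain genes in each of the 6 libraries (CPM plus 0.05, log axis; grey circles no SAG, orange triangles SAG, lines the group means), ordered from dorsal to ventral. The symbols with SAG lie below those without at the dorsal end (Pax7, Pax3), apart from Msx1, and above at the ventral end (Nkx2-2, Nkx2-9, Foxa2, Shh), with Dbx2 overlapping and Olig2 close.

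Intermediate progenitor domains held 14 tested genes, of which 1 rose and 11 fell, 8 at least 2-fold lower (median -1.17). Pax6 (ENSMUSG00000027168, chromosome 2, 105668896 to 105703160, plus strand), expressed in all but the most ventral progenitors and repressed by high hedgehog signal, stood at 68.2, 69.7 and 73 CPM without and 17.6, 19.2 and 18.7 with SAG (log2 change -1.93, SE 0.0517, adjusted p = 2.52e-30). Of its exon bases, 27.9% overlap Elp4 on the other strand. Irx3, which sets the upper border of the motor neuron domain, stood at 34.4, 37.9 and 40.3 CPM without and 7.87, 8.54 and 10.1 with SAG (log2 change -2.09, SE 0.0768, adjusted p = 1.98e-25). It lies on chromosome 8, whose genes had a median change of -0.26. Dbx1, the p0 factor, stood at 72, 72.4 and 71.2 CPM without and 31.9, 31.1 and 33.7 with SAG (log2 change -1.16, SE 0.0475, adjusted p = 6.17e-24). Dbx2 was hardly expressed, at 0.811, 1.56 and 0.87 CPM without and 1.73, 1.04 and 1.19 with SAG (adjusted p = 0.372). Gsx1 was the member that rose (5.1 ± 0.779 to 11.9 ± 1.47 CPM).

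Of 23 tested dorsal and roof plate genes, 3 rose and 15 fell, 2 and 14 of them at least 2-fold (median -1.44). Pax7 (ENSMUSG00000028736, chromosome 4, 139737062 to 139833530, minus strand) stood at 12.8, 12.9 and 13.3 CPM without and 0, 0.0721 and 0.17 with SAG (log2 change -7.22, SE 0.24, adjusted p = 4.21e-27), a level of at most 4 counts in a library with SAG. Pax3 (ENSMUSG00000004872, chromosome 1, 78101267 to 78197134, minus strand) stood at 38, 36.1 and 38.8 CPM without and 1.86, 2.2 and 2.85 with SAG (log2 change -4.03, SE 0.0969, adjusted p = 4.57e-32). Both are dorsal factors that hedgehog signal represses, and neither had overlapping groups. Wnt3a, a roof plate ligand, fell from 5.76 ± 0.292 to 0.246 ± 0.0618 CPM, Rspo3, which amplifies WNT signals, from 83 ± 10.1 to 4.4 ± 0.344 CPM, and Gdf7, a roof plate BMP, from 9.13 ± 1.6 to 0.552 ± 0.187 CPM. Zic1, Zic2, Zic4 and Zic5, factors of dorsal progenitors, fell, Zic4 the furthest of these (229.6 ± 22.2 to 17.9 ± 2.19 CPM). Against this direction, Msx1, a target of BMP signals, stood at 1.18, 1.04 and 1.01 CPM without and 9.13, 8.22 and 8.03 with SAG (log2 change 2.96, SE 0.176, adjusted p = 1.68e-18), and Bmp4 rose from 3.79 ± 0.618 to 14.6 ± 0.793 CPM. Neural crest and neuron markers summed to 7.15 to 8.76 CPM (Sox10, Foxd3 and Snai2) and 841 to 911.5 CPM (Tubb3, Dcx, Elavl3 and Stmn2) without SAG, and to 7.78 to 9.22 and 556 to 583 CPM with it. Fewer cells of a type and less RNA per cell cannot be told apart in these bulk libraries.

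Promoters of the 24 domain and pathway genes that were named whatever their value were read for the GLI binding motif, since the pathway acts through it. Each window runs from 250 bases before the gene start to 50 after, from RefSeq on GRCm38.p6, and 20 of the 24 genes had an entry. Gli1, Shh and Pax3 were among those without an entry, so their promoters were not read. Windows were found for 711 of 1212 genes at least 2-fold higher with SAG and for 833 of 1206 at least 2-fold lower. The full motif GACCACCCA, which reads TGGGTGGTC on the other strand, was in 0 of 899 windows of genes at least 2-fold higher with SAG, in 1 of 1096 windows of genes at least 2-fold lower, and in 28 of 14770 windows of all tested genes (0.190%). Its core CCACCCA, on either strand, searched after that result and contained in the full motif, was in 103 of 899 (11.5%), 129 of 1096 (11.8%) and 1464 of 14770 (9.91%). Among the 20 matched genes the core was in Nkx2-9, with the largest rise of the 24, and in Olig2, which was nearly level. These 2 are shown to 30 bases on each side, ending at the gene start where that comes first, with the core in capitals, at chr12:56613455-56613521 on the minus strand (the core starts 207 bases before the start of Nkx2-9) and at chr16:91225503-91225549 on the plus strand (17 bases before that of Olig2). A match describes letters and is not a measured binding site, and these windows hold nothing of distant enhancers.
Nkx2-9: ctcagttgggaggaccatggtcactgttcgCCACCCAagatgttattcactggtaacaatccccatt
Olig2: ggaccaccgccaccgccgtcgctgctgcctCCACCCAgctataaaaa

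Neurons made from these domains were described next, beginning with the ventral ones. Of 14 tested branchiomotor and serotonergic genes, 10 rose and 2 fell, 7 and 1 of them at least 2-fold (median 1.00). Slc6a4, the serotonin transporter, stood at 0.295, 0.148 and 0.217 CPM without and 11, 11.1 and 11.2 with SAG (log2 change 5.62, SE 0.225, adjusted p = 2.95e-24). Tph2, the enzyme that starts neuronal serotonin synthesis, stood at 0.516, 0.742 and 0.29 CPM without and 8.44, 8.25 and 7.44 with SAG (log2 change 3.95, SE 0.216, adjusted p = 1e-19). Both lay at or below 10 counts in each library without SAG. Fev, the serotonergic selector factor, rose from 0.93 ± 0.297 to 7.94 ± 0.738 CPM and Gata2 from 7.91 ± 0.489 to 26.2 ± 0.801 CPM. Phox2a, a factor of branchiomotor neurons, was not called (2.67 to 2.5 CPM, adjusted p = 0.58). Tbx20, of branchiomotor neurons, rose from 0.515 ± 0.449 to 2.28 ± 0.165 CPM.

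Of 14 tested somatic motor neuron genes, 6 rose and 4 fell, 2 and 1 at least 2-fold (median 0.23). Isl1 stood at 7.52, 6.68 and 6.23 CPM without and 21.7, 19.7 and 21.4 with SAG (log2 change 1.62, SE 0.0933, adjusted p = 6.02e-19). The defining genes of mature somatic motor neurons were near absent in both groups: Mnx1 went from 0.513 ± 0.142 to 0.963 ± 0.0908 CPM, Lhx3 from 0.0984 ± 0.114 to 0.0545 ± 0.0657 CPM and Chat, which makes acetylcholine, from 0.147 ± 0.0745 to 0.126 ± 0.0782 CPM, the last 2 not called (adjusted p = 0.479 and 0.766). Etv4, a motor pool factor that FGF signals induce, fell from 187 ± 9.92 to 43.1 ± 1.66 CPM.

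Spinal and hindbrain interneuron genes were mostly lower, 22 of 31 tested having fallen and 5 risen, 17 and 2 at least 2-fold (median -1.38). Slc17a6, the glutamate transporter of excitatory neurons, stood at 48.9, 51.4 and 47.1 CPM without and 1.64, 2.2 and 1.74 with SAG (log2 change -4.70, SE 0.0908, adjusted p = 2.24e-35). Lhx9, of dorsal commissural neurons, was at 40.9, 34.9 and 33.4 CPM without and 1.34, 1.73 and 1.15 with SAG (log2 change -4.67, SE 0.117, adjusted p = 2.33e-31). Lbx1, of dorsal association neurons, stood at 2.58, 2.67 and 2.61 CPM without and 0.0433, 0.0721 and 0.17 with SAG. Lhx1 fell from 75.8 ± 2.92 to 13.7 ± 1.39 CPM and En1, of V1 neurons and of the midbrain, from 78.4 ± 2.91 to 24.2 ± 0.541 CPM. In contrast the inhibitory genes Gad2 (34.4 ± 2.93 to 44.7 ± 1.66 CPM, log2 change 0.38, SE 0.0592, adjusted p = 4.27e-07) and Slc32a1 (17.8 to 23.1 CPM) rose slightly, and Gad1 did not pass the test (42 to 42 CPM, adjusted p = 0.98). Slc17a8, a glutamate transporter outside that list, which is found in serotonergic neurons, stood at 1.33, 2.0 and 1.67 CPM without and 28.2, 27.5 and 26.6 with SAG (log2 change 4.04, SE 0.121, adjusted p = 1.25e-28).

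Of 25 tested proneural and neurogenesis genes, 2 rose and 19 fell, none and 12 at least 2-fold (median -0.96). Neurog2 stood at 45, 37.8 and 33.5 CPM without and 14.2, 13.2 and 13.5 with SAG (log2 change -1.51, SE 0.0775, adjusted p = 2.47e-18). Neurog1 went from 21.1 ± 0.964 to 2.48 ± 0.0546 CPM. Nhlh1, transient in newborn neurons, stood at 70.6, 68.3 and 68.9 CPM without and 4.33, 4.9 and 4.63 with SAG (log2 change -3.90, SE 0.0635, adjusted p = 6.96e-38). The cortical neuron factors Neurod6 and Neurod2 all but vanished. Neurod6 had 156 counts over the 3 libraries without SAG and 0 with, at least 91.8-fold lower against a floor of 3 counts over the group. Neurod2 had 221 and 2 (ratio 195, 95% interval 53.4 to 1.62e+03, exact binomial, which covers counting error only). Hes6 and Btg2, of cells about to divide for the last time, were not called (129.7 to 127 CPM and 262 to 261 CPM, adjusted p = 0.407 and 0.788). Of 27 tested genes of postmitotic neurons, none rose and 25 fell, 10 at least 2-fold (median -0.64). Cntn2, on early axons, stood at 114, 106 and 102 CPM without and 18.1, 20.2 and 20.1 with SAG (log2 change -2.46, SE 0.0488, adjusted p = 5.31e-35). Changes were smaller in Tubb3 (320.1 ± 21.1 to 248 ± 8.63 CPM), neuronal tubulin, and Stmn2 (131 ± 5.82 to 120.4 ± 6.49 CPM) than in Dcx (288 ± 8.5 to 111 ± 4.78 CPM), of migrating neurons, and Mapt (192 ± 10.7 to 64.3 ± 0.843 CPM), on axonal microtubules, differences between genes that were not tested. The summed neuron markers, at 841 to 911.5 CPM without SAG and 556 to 583 CPM with it, moved with both lists.

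Among 24 tested neural progenitor and radial glia genes, 9 rose and 12 fell, 2 and 5 at least 2-fold (median -0.08). Sox2, which keeps progenitors undifferentiated, stood at 610.0, 634 and 679 CPM without and 428, 423 and 429 with SAG (log2 change -0.59, SE 0.0322, adjusted p = 1.06e-19), and Nes, the progenitor intermediate filament, was not called (299 ± 19.5 to 289 ± 10.1 CPM, adjusted p = 0.214). Among the members that fell, Ptprz1, a receptor phosphatase, stood at 419, 496 and 521 CPM without and 114, 117 and 122 with SAG (log2 change -2.02, SE 0.0786, adjusted p = 4.83e-09), Slc1a3, a glial glutamate transporter, went from 391 ± 25.5 to 124 ± 4.21 CPM and Fabp7 from 931 ± 47.5 to 510.1 ± 41.6 CPM. Lin28a, an RNA-binding protein of early embryonic cells, stood at 43, 44.8 and 38.8 CPM without and 185, 176 and 173 with SAG (log2 change 2.08, SE 0.0437, adjusted p = 4.43e-34), and its paralogue Lin28b rose from 54.2 ± 1.97 to 107 ± 2.96 CPM. The gliogenic factors Nfia and Nfib fell from 126 to 58.4 CPM and 158 to 55.1 CPM. They were among 9 of 13 tested astrocyte and oligodendrocyte genes that fell, 5 at least 2-fold, against 3 that rose. The 4 markers Gfap, Aqp4, Pdgfra and Mbp summed to 45.9 to 55.3 CPM without SAG and 59.3 to 62.9 CPM with it. Of 22 tested genes listed for the Notch pathway and its partners, 12 rose and 6 fell, 4 and none at least 2-fold (median 0.16). Id3 and Id1, inhibitors of proneural factors that BMP signals also induce, rose from 82 ± 4.29 to 425 ± 13.9 CPM and 33.2 ± 2.6 to 110.3 ± 5.31 CPM, and the Notch target Hes5 from 67.3 ± 2.79 to 90.1 ± 2.4 CPM. Dll1, the ligand of newborn neurons, was not called (121 to 126 CPM, adjusted p = 0.415) and Jag1, another ligand, fell from 162 ± 13.5 to 91.3 ± 3.94 CPM.

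Along the body axis, midbrain and isthmus genes were mostly lower. Of 19 tested, 3 rose and 15 fell, 2 and 11 at least 2-fold (median -1.55). En2 fell from 107 ± 9.74 to 18.1 ± 0.374 CPM, Pax5 from 7.84 ± 1.32 to 1.37 ± 0.245 CPM and Pax8 from 8.18 ± 0.899 to 0.387 ± 0.0728 CPM, all factors of the midbrain and isthmus. Cnpy1, a positive regulator of FGF signals at the isthmus, stood at 203, 208 and 224 CPM without and 16.7, 19.5 and 18.4 with SAG (log2 change -3.54, SE 0.0597, adjusted p = 2.53e-24). Fgf8, the organiser ligand itself, rose, at 1.7, 1.63 and 1.38 CPM without and 12.7, 10.6 and 11.4 with SAG (log2 change 2.87, SE 0.155, adjusted p = 7.02e-20). Otx2, of forebrain and midbrain, fell from 216 ± 8.23 to 146 ± 4.78 CPM.

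Of 28 tested forebrain and eye field genes, 15 rose and 10 fell, 11 and 6 at least 2-fold (median 0.44). Nkx2-1 (ENSMUSG00000001496, chromosome 12, 56531935 to 56536908, minus strand), a ventral forebrain factor, stood at 2.21, 1.86 and 1.45 CPM without and 99.2, 104 and 108 with SAG (log2 change 5.82, SE 0.101, adjusted p = 1.13e-34). Rax, of hypothalamus and eye, rose from 0.392 ± 0.115 to 7.41 ± 0.307 CPM, Dlx2, of the ventral telencephalon, from 23.6 ± 2.77 to 69.1 ± 2.42 CPM, and Sim2 from 0.612 ± 0.0801 to 10.1 ± 1.11 CPM. A pair of dorsal forebrain factors fell. Tbr1, of cortical neurons, stood at 55.1, 52.9 and 50.1 CPM without and 1.95, 1.73 and 2.17 with SAG (log2 change -4.76, SE 0.103, adjusted p = 1.24e-32). Emx1, of the dorsal telencephalon, was at 3.1, 2.82 and 3.19 CPM without and 0.0433, 0.036 and 0.085 with SAG (log2 change -5.66, SE 0.373, adjusted p = 4.69e-17). Six3, of the anterior neural plate, was not called (47.7 to 45.6 CPM, adjusted p = 0.26). The grouping by dorsal and ventral position was made after the values were seen.

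Hindbrain genes were mixed, 7 of 18 tested having risen and 8 fallen (5 and 5 at least 2-fold). Hox genes were low in both groups and those that changed were mostly higher with SAG. In groups 1 to 4, 4 of 9 tested rose and none fell, with Hoxb4 at 0.59, 0.445 and 0.29 CPM without and 2.68, 2.42 and 2.51 with SAG (log2 change 2.50, SE 0.275, adjusted p = 1.24e-10). Hoxb2 and Hoxb3 rose from 0.759 to 2.41 CPM and 0.735 to 2.83 CPM, but 49.4% and 37.9% of their exon bases overlap Hoxb3os on the other strand with the strand setting of the counting unknown. In groups 5 to 9, 4 of 11 rose and Hoxb9 fell (2.94 ± 0.521 to 1.55 ± 0.108 CPM). In groups 10 to 13, 7 of 8 rose, all at least 2-fold, with Hoxd10 at 0, 0.148 and 0.145 CPM without and 1.47, 1.41 and 1.36 with SAG (log2 change 3.76, SE 0.461, adjusted p = 1.91e-09), and the group means of all 8 were low in both groups. These are few counts: Hoxa11 had 3 without SAG and 63 with it (ratio 11.9, 95% interval 3.89 to 59.2), Hoxd13 had 3 and 52 (9.82, 3.18 to 49.2), and Hoxc11 had 2 and 17 (4.82, 1.14 to 43.0). Hoxd12, under the count filter, had 0 and 29, at least 5.48-fold higher. Members near 0 without SAG, such as Hoxd10 and Hoxd11, could pass this filter only through libraries with SAG. The share of groups 10 to 13 that rose was therefore partly set by the filter.

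Other signalling pathways moved in parts. Of 26 tested BMP, TGF-beta and Nodal genes, 19 rose and 3 fell, 12 and 1 at least 2-fold (median 0.97). Lefty1, a Nodal antagonist and target expressed in the early floor plate, stood at 3.39, 3.49 and 2.54 CPM without and 37.4, 36.5 and 36.1 with SAG (log2 change 3.54, SE 0.0958, adjusted p = 2.97e-30), and Nodal rose from 4.71 ± 0.393 to 16.1 ± 0.748 CPM. Id3 stood at 86.9, 80.1 and 78.9 CPM without and 439.5, 412 and 425 with SAG (log2 change 2.38, SE 0.0375, adjusted p = 2.63e-38), and Smad6, a BMP feedback inhibitor, rose from 3.26 ± 0.586 to 7.49 ± 0.449 CPM. Of 28 tested Wnt genes, 13 rose and 14 fell, 7 and 8 at least 2-fold (median -0.11). Wnt8b, of the dorsal brain, stood at 85.2, 75.1 and 70.7 CPM without and 3.98, 3.86 and 3.65 with SAG (log2 change -4.33, SE 0.0835, adjusted p = 5.13e-34), and Wnt1, of the dorsal midline and midbrain, fell from 103 ± 0.492 to 34.9 ± 1.08 CPM. The WNT antagonists Notum and Dkk1 rose from 1.94 ± 0.321 to 18.2 ± 0.628 CPM and 1.57 ± 0.253 to 4.56 ± 0.243 CPM, and Axin2, a general WNT target, fell from 109 ± 6.62 to 89.1 ± 1.37 CPM. Of 25 tested FGF genes, 8 rose and 16 fell, 5 and 8 at least 2-fold (median -0.79). The feedback genes fell, with Spry1 at 383, 394 and 408 CPM without and 79.4, 82.2 and 87.3 with SAG (log2 change -2.25, SE 0.0353, adjusted p = 2.2e-38), Spry2 from 279 ± 17.5 to 61.3 ± 1.32 CPM and Dusp6 from 328 ± 26 to 127 ± 4.26 CPM, while the ligands Fgf5 and Fgf8 rose, the former from 1.23 ± 0.217 to 10.1 ± 1.43 CPM. Of 18 tested retinoid genes, 8 rose and 5 fell, 3 and 2 at least 2-fold. Cyp26b1, which breaks down retinoic acid, stood at 203, 199.5 and 218 CPM without and 6.71, 6.49 and 6.03 with SAG (log2 change -5.01, SE 0.0544, adjusted p = 6.23e-44). Cyp26a1, of the same enzyme family, was at 0.737, 1.11 and 0.145 CPM without and 2.03, 2.16 and 2.34 with SAG (log2 change 1.71, SE 0.294, adjusted p = 2.18e-06).

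Guidance genes followed, with 11 of 29 tested risen and 18 fallen, 2 and 10 at least 2-fold (median -0.52). Robo3, the receptor that lets commissural axons cross the midline, stood at 87.5, 98.1 and 94.5 CPM without and 4.5, 7.03 and 5.99 with SAG (log2 change -3.98, SE 0.0965, adjusted p = 1.46e-15). Dcc, the netrin receptor, fell from 152 ± 2.61 to 49.6 ± 3.43 CPM, while the ligands Ntn1, Slit1, Slit2 and Slit3 all rose.

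Genes of tissues outside the neural tube differed by list. Of 22 tested genes known as hedgehog targets in other tissues, 13 rose and 8 fell, 9 and 2 at least 2-fold (median 0.67). Foxf2, induced by hedgehog in gut and face mesenchyme, stood at 2.58, 2.23 and 3.12 CPM without and 50.2, 47.4 and 46.7 with SAG (log2 change 4.18, SE 0.0961, adjusted p = 1.03e-32). Foxd1, of kidney stroma and hypothalamus, was at 4.64, 5.57 and 4.57 CPM without and 69.9, 69.3 and 70 with SAG (log2 change 3.82, SE 0.0759, adjusted p = 5.8e-35). Mycn rose from 94.4 ± 2.5 to 160.5 ± 2.69 CPM, whereas Ccnd1 and Ccnd2, cyclins named as targets in cerebellar precursors, fell from 646 to 606 CPM and 1414 to 986 CPM. Of 18 tested mesenchyme and fibroblast genes, 17 rose and 1 fell, 14 at least 2-fold higher (median 1.38). Col3a1 stood at 189, 206 and 204 CPM without and 1336, 1285 and 1297 with SAG (log2 change 2.71, SE 0.0347, adjusted p = 2.19e-41) and Col1a1 at 73.6, 85.7 and 72 CPM without and 491, 515 and 489.7 with SAG (log2 change 2.69, SE 0.0508, adjusted p = 4.78e-21). Dcn, a matrix proteoglycan, was at 5.75, 7.05 and 6.45 CPM without and 36.6, 35.6 and 37.1 with SAG (log2 change 2.50, SE 0.0799, adjusted p = 1.04e-27). The 4 mesenchyme markers (Col1a1, Col1a2, Postn and Pdgfrb) summed to 232 to 251 CPM without SAG and 856 to 890.4 CPM with it, none at 0 in any library. The part of mesenchymal cells in the Foxf2, Foxd1 and other values was not tested.

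Pluripotency genes were still present in both groups, and 13 of 19 tested rose and 1 fell, 3 at least 2-fold higher (median 0.46). Pou5f1 (Oct4) stood at 46.8, 54.3 and 47.5 CPM without and 145, 134 and 131 with SAG (log2 change 1.46, SE 0.0791, adjusted p = 2.66e-09), and 14.8% of its exon bases are overlapped on the other strand. Sall4 rose from 42.2 ± 1.18 to 122 ± 8.76 CPM and Nanog from 41 ± 3.07 to 80.2 ± 4.34 CPM, while Zfp42 and Esrrb, of naive cells, were not called (34.7 to 36.2 CPM and 51.5 to 50.8 CPM, adjusted p = 0.442 and 0.747). The pluripotent markers Pou5f1, Nanog, Zfp42 and Esrrb summed to 168 to 192.5 CPM without SAG and 288 to 317.5 CPM with it. Of 18 tested neuromesodermal and paraxial mesoderm genes, 8 rose and 7 fell (median -0.12). T (brachyury) rose from 12.7 ± 0.387 to 30.8 ± 0.493 CPM and Tbx6 fell from 2.79 ± 0.225 to 1.44 ± 0.0515 CPM. The markers T, Tbx6, Msgn1 and Meox1 summed to 15.1 to 16.4 and 32.2 to 32.9 CPM, with Msgn1 at 1 count or 0 in each library. Of 13 tested lateral and intermediate mesoderm genes, 9 rose and 2 fell (median 1.82), most of them low: Mixl1 had 0 counts without SAG and 72 with it, at least 13.6-fold higher, and Hand2 rose from 0.22 ± 0.0712 to 1.5 ± 0.271 CPM. Members near 0 without SAG, such as Mixl1, could not pass the count filter through those libraries. The share of this list that rose may therefore be partly set by the filter. Of 12 tested endoderm genes, 10 rose and 1 fell, 8 at least 2-fold higher (median 1.34), Foxa1 and Foxa2 among them. Sox17 rose from 0.833 ± 0.118 to 2.33 ± 0.30 CPM. Of 16 tested neural crest genes, 7 rose and 8 fell, 3 and 4 at least 2-fold. Tfap2b stood at 59.4, 59.3 and 52.1 CPM without and 2.73, 1.98 and 2.51 with SAG (log2 change -4.58, SE 0.0863, adjusted p = 9.18e-36) and Sox10 went from 4.33 ± 0.657 to 1.09 ± 0.346 CPM, whereas Snai1, also of early mesoderm, rose from 1.91 ± 0.124 to 11.8 ± 0.728 CPM. Epidermis and placode genes rose in 8 of 10 and fell in 1, and vascular genes rose in 4 of 5 and fell in 1. The markers Pecam1, Cdh5, Ptprc and Hbb-y summed to 15.0 to 17.9 and 20.5 to 22.9 CPM, with Ptprc and Hbb-y at 0 in all 6 libraries.

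General programmes of the cell differed as well. Of 24 tested replication and mitosis genes, 22 rose and 1 fell, 5 at least 2-fold higher (median 0.70). Ccne1, the cyclin of entry into S phase, stood at 24.9, 21.9 and 19.6 CPM without and 66, 63.2 and 60.4 with SAG (log2 change 1.51, SE 0.0614, adjusted p = 1.58e-23), and Cdc6, which loads the replicative helicase, rose from 25.1 ± 0.427 to 63.2 ± 1.62 CPM. Mki67, of cycling cells, fell from 494 ± 11.3 to 416 ± 22.2 CPM, and Top2a was not called (1106 ± 28.6 to 1115 ± 34.7 CPM, adjusted p = 0.731). D cyclins and Myc genes were mixed (3 rose and 5 fell of 8), Mycn rising and Myc falling (17.7 ± 0.587 to 10.1 ± 0.451 CPM). Cell cycle inhibitors were mixed too (6 rose and 6 fell of 14), with Cdkn2b at 1.11, 1.04 and 1.81 CPM without and 9.73, 11.3 and 9.6 with SAG (log2 change 2.95, SE 0.161, adjusted p = 1.01e-19) and Cdkn1a falling from 366 ± 15.4 to 266 ± 1.4 CPM. Of 16 tested p53 targets, 4 rose and 10 fell, 1 at least 2-fold lower. Replication histone genes, 2 of 9 risen and 3 fallen, are near-identical copies whose reads are shared, and their values are uncertain. Hist1h4i lost its call with DESeq2 and without either of 2 libraries without SAG or 1 with SAG, and Hist1h1d without 1 library (adjusted p from 0.0516 to 0.109).

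All 22 tested genes of the integrated stress response fell, 16 at least 2-fold (median -1.57). This response, run by the factor Atf4, raises amino acid uptake and synthesis. Atf5 stood at 701, 818 and 860.0 CPM without and 47.2, 55.2 and 54.5 with SAG (log2 change -3.92, SE 0.0885, adjusted p = 7.4e-11), the transporter Slc7a5 went from 1338 ± 80 to 278 ± 22.1 CPM, asparagine synthetase Asns from 649 ± 17 to 192 ± 17.4 CPM and Atf4 itself from 390.2 ± 7.86 to 283 ± 15.8 CPM. Gdf15, a secreted stress signal, fell from 10 ± 1.08 to 1.77 ± 0.43 CPM. Genes of the unfolded protein response were mostly higher, 9 of 13 tested having risen and 3 fallen, 1 and 2 at least 2-fold. Sdf2l1 stood at 8.41, 8.09 and 9.71 CPM without and 34.6, 31.1 and 33.6 with SAG (log2 change 1.92, SE 0.0836, adjusted p = 5.06e-23) and Hspa5 rose from 298 ± 1.62 to 474 ± 30.2 CPM, while Herpud1 fell from 152 ± 1.69 to 69.6 ± 9.94 CPM. All 22 tested cholesterol synthesis genes rose, 11 at least 2-fold (median 1.05). Hmgcs1, the first committed enzyme, went from 359 ± 37.8 to 896 ± 41 CPM, and Fdps, which makes farnesyl diphosphate, from 30.8 ± 2.62 to 113 ± 8.19 CPM.

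Of 20 tested hypoxia and glycolysis genes, 13 rose and 4 fell, 3 and 3 at least 2-fold (median 0.51). The glucose transporter Slc2a1 stood at 158, 157 and 159 CPM without and 418, 405 and 397 with SAG (log2 change 1.36, SE 0.0322, adjusted p = 2.6e-32) and lactate dehydrogenase Ldha rose from 249.7 ± 13.6 to 576 ± 12.8 CPM, but Vegfa, the vascular growth factor induced in hypoxia, stood at 441, 498 and 501 CPM without and 120.3, 154 and 137 with SAG (log2 change -1.80, SE 0.102, adjusted p = 1.97e-07). Immediate early genes rose in 12 of 15 tested and fell in 1, 7 at least 2-fold higher, with Egr1 at 149.8, 139 and 107 CPM without and 327, 369.5 and 342 with SAG (log2 change 1.39, SE 0.129, adjusted p = 8.4e-06). Interferon response genes rose in 6 of 8 tested and fell in none, Isg15 from 0.244 ± 0.109 to 1.94 ± 0.319 CPM. At so low a level without SAG, the share that rose may be partly set by the count filter. Of 10 tested mitochondrially encoded genes, 8 rose and 1 fell, 5 at least 2-fold higher, beside the higher mitochondrial share given above. mt-Nd2 went from 422 ± 15.4 to 1206 ± 73.6 CPM, whereas mt-Co1 was not called (4472 ± 102 to 4211 ± 78.2 CPM, adjusted p = 0.0749). Several of these genes have nuclear copies that share reads, and mt-Atp6 and mt-Co2 were close to absent (0.269 to 1.61 CPM and 0.464 to 1.41 CPM). Of 19 tested imprinted genes, 10 rose and 7 fell. Peg10 stood at 422, 443 and 456 CPM without and 1880.0, 1851 and 1913 with SAG (log2 change 2.10, SE 0.0318, adjusted p = 8.5e-39), and Meg3 fell from 933 ± 77 to 482 ± 85.7 CPM while Dlk1, in the same imprinted domain, rose from 91.1 ± 4.02 to 177 ± 2.27 CPM.

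**Figure D3:**
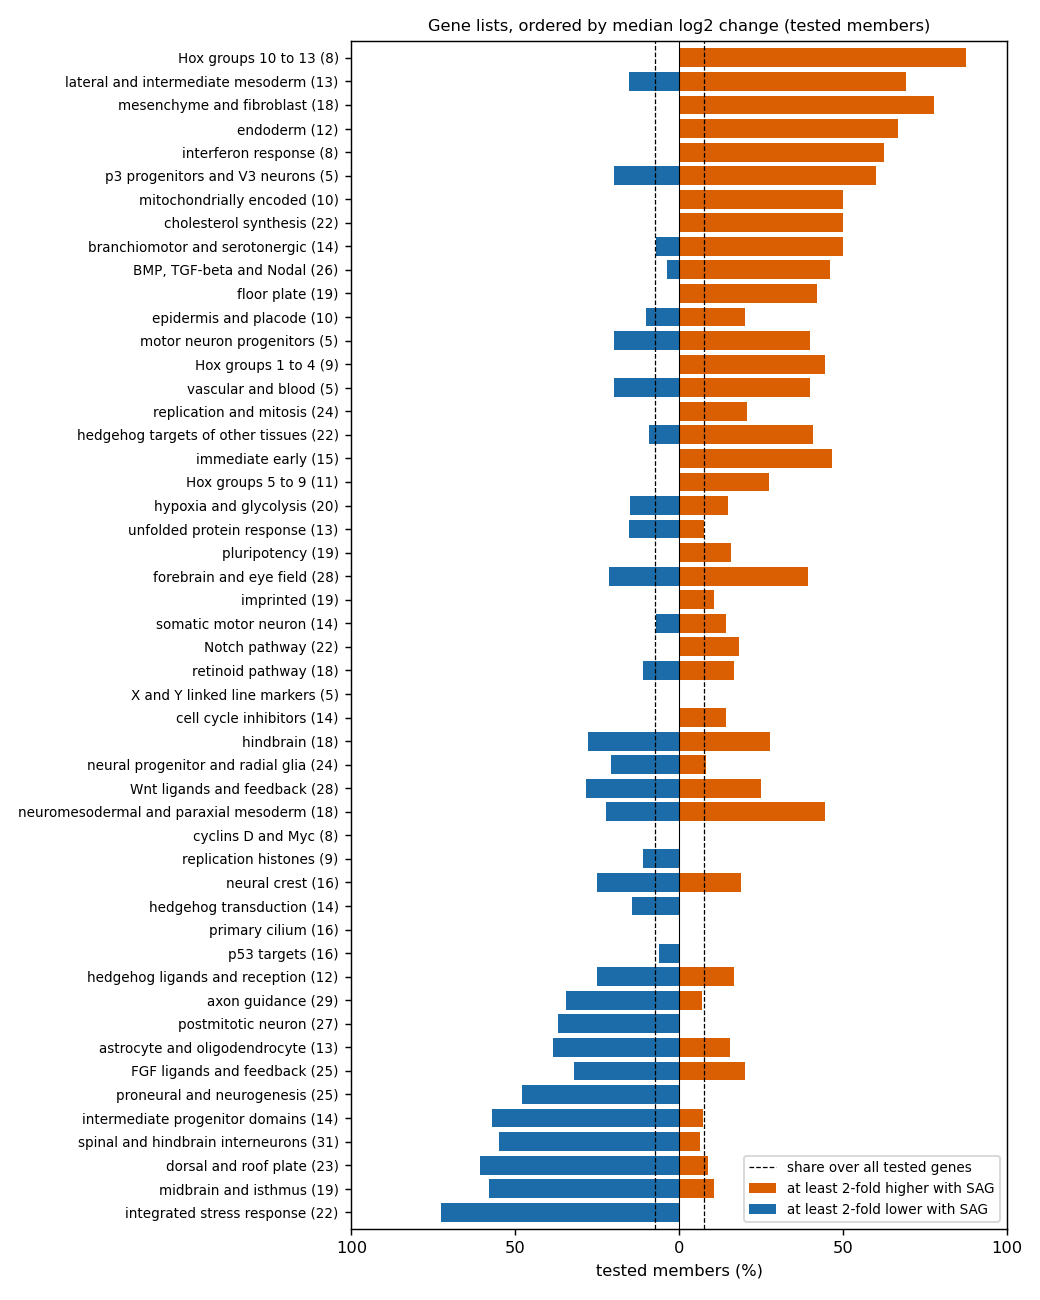
Share of the tested members of each gene list that were called and at least 2-fold higher (orange, to the right) or lower (blue, to the left) with SAG, lists with 5 or more tested members, ordered by median log2 change, the number tested in brackets. The dashed lines mark the shares over all tested genes, 7.46% higher and 7.43% lower. The integrated stress response (16 of 22) and the dorsal and roof plate (14 of 23) reach far to the left, and mesenchyme (14 of 18) and Hox groups 10 to 13 (7 of 8) to the right. The Hox share was partly set by the count filter, which some members could pass only through libraries with SAG. The shares of lateral and intermediate mesoderm and of the interferon response may be partly set by it too.

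The genes with the largest changes were chosen on this contrast and are given as a description. Several belong to the lists above, which were themselves chosen with earlier results of these data known. Among genes whose groups did not overlap and whose higher group averaged 10 CPM or more, the 10 largest rises were Nkx2-1, Slc6a4, Nkx2-9, Cldn1, Car4, Apod, Foxf2, Slc17a8, Sim2 and Foxd1, between 56.4-fold and 14.2-fold. Cldn1, a tight junction protein, stood at 0.885, 0.816 and 0.942 CPM without and 24.9, 24.2 and 24.2 with SAG. Car4, a membrane-bound carbonic anhydrase, stood at 3.1, 3.04 and 2.61 CPM without and 69.2, 64.2 and 62.2 with SAG, and Apod, a lipid-binding lipocalin, at 2.58, 2.45 and 3.19 CPM without and 53.5, 50.5 and 51.8 with SAG. The 10 largest falls were Pax7, Luzp2, Trim66, Cyp26b1, Mab21l1, Tbr1, Trhr, Slc17a6, Lhx9 and Tfap2b, between 149-fold and 23.9-fold. Luzp2 stood at 34.3, 34.4 and 34.8 CPM without and 0.433, 0.252 and 0.17 with SAG, and Trhr, the receptor of thyrotropin-releasing hormone, at 19.9, 20.1 and 21.6 CPM without and 0.822, 0.685 and 0.765 with SAG. Trim66 stood at 184, 252 and 262 CPM without and 1.56, 2.99 and 2.08 with SAG, with replicate 1 the lowest of those without SAG.

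**Figure D4:**
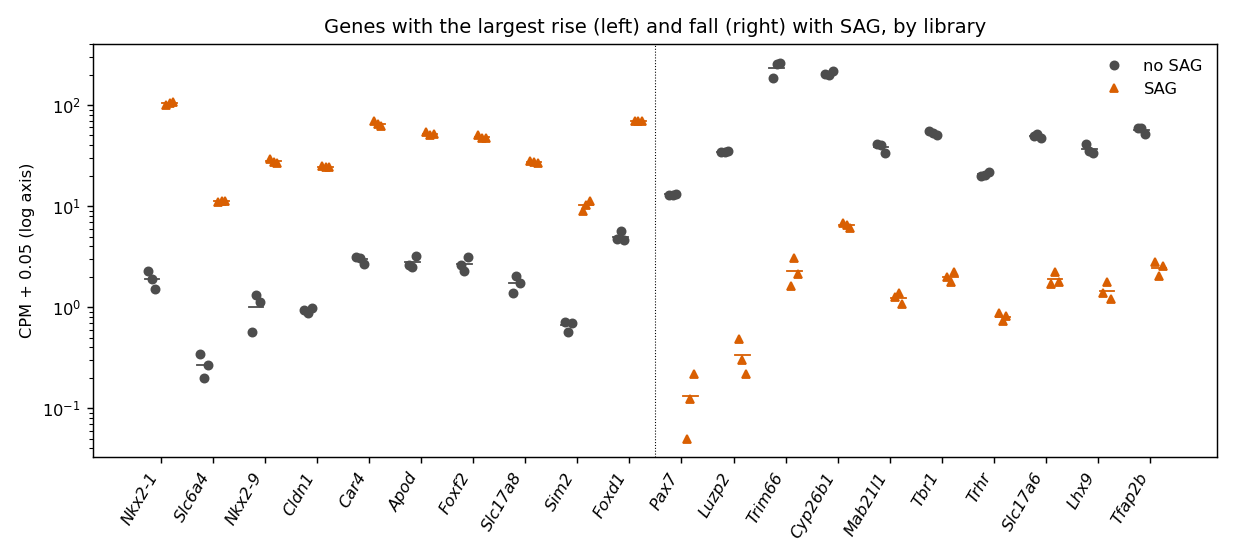
Level of the 10 genes with the largest rise (left of the dotted line) and the 10 with the largest fall (right) in each library (CPM plus 0.05, log axis; grey circles no SAG, orange triangles SAG, lines the group means). The symbols of the groups lie apart for every gene, as the choice of genes required. The libraries of a group spread most visibly at low levels, as for Pax7 and Luzp2 with SAG and Nkx2-9 without.

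Genes of chromosome 8 were lower with SAG as a group. Over 671 genes of at least 5 CPM the median log2 change was -0.26, and 31.2% of them lay above the median of all genes (-0.01). Medians of the other autosomes ran from -0.07 to 0.09. Relative to the mean of the 6 libraries, the chromosome 8 median was -0.105, -0.0919 and -0.104 in the libraries with SAG and 0.0988, 0.108 and 0.0897 in those without. Of the genes named by rule, Hhip, Irx3, Hand2, Cdh5, Gdf15 and Herpud1 lie on this chromosome, and the part of this shift in their changes was not tested. Their changes were 0.02, -2.09, 2.75, 1.66, -2.49 and -1.12 in that order. Other genes of the lists lie there too: of the hedgehog transduction genes 2 of 14 tested rose, and 1 of 13 without chromosomes 8 and Y. On the Y chromosome Uty and Ddx3y rose slightly (log2 change 0.36, SE 0.0669, adjusted p = 6.66e-06, and log2 change 0.26, SE 0.0572, adjusted p = 0.000129), Eif2s3y was not called (-0.09, adjusted p = 0.102), and Xist went from 0.147 to 0.134 CPM. Against the rise of Uty and Ddx3y, the Y gene Gm47283 fell (log2 change -0.67, SE 0.129, adjusted p = 0.00123). In the comparison of SAG with no SAG among libraries with Hoxb1, the chromosome 8 median was -0.14 and that of chromosome 11 was -0.19. In that comparison Uty, Ddx3y and Eif2s3y fell together (log2 change -1.27, -1.51 and -1.46), and the other tested Y genes were not called.

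**Figure D5:**
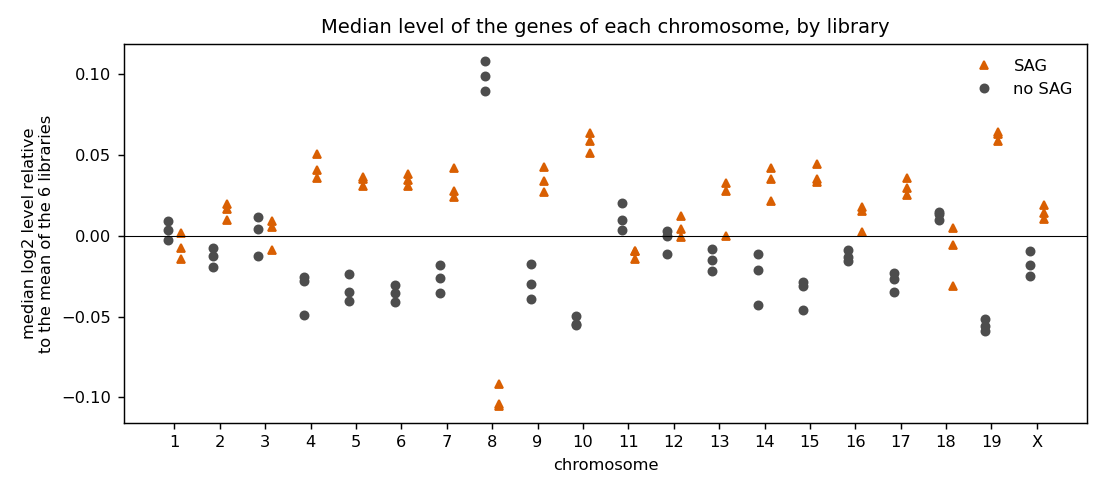
Median level of the genes of each chromosome in each library, as log2 of CPM plus 0.5 relative to the mean of the 6 libraries (grey circles no SAG, orange triangles SAG). On chromosome 8 the libraries without SAG lie between 0.0897 and 0.108 and those with SAG between -0.105 and -0.0919, further apart than on the other chromosomes.

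The same contrast in libraries labelled as expressing Hoxb1, which also received doxycycline, shares no library with the one above. There, 11726 genes were called (72.2%), and 9007 genes were called in the same direction in both and 585 in opposite directions. The SAG change differed between progenitors with and without Hoxb1, by the test of the difference itself, in 5759 of 16238 genes (35.5%), and by at least 2-fold in 852 of them (5.25% of all tested). The hedgehog feedback genes Ptch1, Gli1 and Hhip were among the genes that differed. Ptch1 did so by less than 2-fold (1.62 compared with 1.15, difference 0.46, adjusted p = 3.81e-07). Gli1 rose with SAG when Hoxb1 was present (log2 change 1.29, compared with -0.14 without, difference 1.43, adjusted p = 1.76e-05), and so did Hhip (1.52 compared with 0.02, difference 1.51, adjusted p = 2.54e-09). Olig2 rose with Hoxb1 and fell slightly without it (0.87 compared with -0.18, difference 1.05, adjusted p = 1.66e-13). With SAG, mean levels without and with Hoxb1 were 32.25 and 32.05 CPM for Olig2 and 29.9 and 33.3 CPM for Hhip. They were 625 and 620 CPM for Ptch1 and 142.5 and 187 CPM for Gli1. In the absence of SAG they were 36.55 and 17.5 CPM for Olig2 and 29.6 and 11.6 CPM for Hhip. Those of Ptch1 were 281 and 202 CPM and those of Gli1 158 and 76.7 CPM. For Olig2, Hhip and Ptch1 the difference thus lay mainly in the levels without SAG. Foxa2 rose by more with Hoxb1 (4.62 compared with 3.18, adjusted p of the difference = 3.65e-12), while Nkx2-1 and Slc6a4 rose by less (3.35 compared with 5.82, and 2.52 compared with 5.62, adjusted p of the difference = 3.02e-07 and 4.03e-05). The library set is the same divide in both contrasts.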

How the data were processed

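RNA-seq measured 18 libraries, 3 per group. Per the labels' protocols, poly(A) RNA was made into directional libraries with 15 PCR cycles. Per the submitters' processing notes, bcl2fastq 1.8.2, featureCounts 1.4.6 and mm10 were used by the authors, who deposited whole counts per gene. Aligner, annotation release and strand setting: not given in the sources used here. Groups came from the labels. The table held 37224 genes, 35449 of which had a symbol. The 12 neural progenitor libraries, with 1 mean per group and TMM factors of 0.972 to 1.03, were fitted with edgeR 4.0.16 (R 4.3.3, glmQLFit robust, glmQLFTest, filterByExpr, Benjamini-Hochberg over 16238 genes). Depth, 13589876 counts or more in each of the 6 libraries compared, limits precision mainly for genes of a few counts. Intervals and floors of 3 counts over a group cover counting error only. The statistics were tested on simulated data with few changed genes, the same spread for every gene and no effect of library set. That setting differs from these data, so it does not show how the test behaves under so broad a change.

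The 158 genes named by rule were 24 fixed names, the 10 largest rises and falls (at least 10 CPM, no overlap) and up to 3 called members per list (at least 1 CPM). Other genes were chosen after their values were seen. The members and the 51 lists were chosen with earlier results of these data known. Same-numbered libraries of the groups did not deviate together (correlations -0.0124, 0.0545 and 0.0327), so the numbers were not taken as pairs. Alternatives were DESeq2 1.42.0, other scalings, filters and sets of libraries, a replicate block and leaving out each library. Promoters came from RefSeq (GRCm38.p6). 12 other libraries served only for the spread or the comparison with Hoxb1, or were not used. Some genes of the lists are withheld and are counted but not reported here by name.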

Additional observations from a re-analysis of the deposited data

Results flagged for a closer look

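The change with SAG differed between progenitors with and without Hoxb1 by at least 2-fold, at an adjusted p under 0.05 in the test of the difference (edgeR's quasi-likelihood test), in 56 of the 158 genes named by rule, and in 112 at any size. Over all 16238 tested genes the shares were 5.25% and 35.5%. Each value below is the log2 change with SAG in the presence of Hoxb1 minus that in its absence. Many of the genes were chosen for a large change without Hoxb1. SAG and library set cannot be told apart in either contrast.

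Negative differences were found in 25 genes. They were largest in Slc6a4 -3.10, Prdm13 -2.64, Dbx1 -2.50, Nkx2-1 -2.47, Hoxb3 -2.22, Dbx2 -2.08, Fgf5 -1.92, Ddx3y -1.77, Hey2 -1.66. They were also found in Uty -1.63, Hoxb2 -1.52, Peg10 -1.51, Tph2 -1.43, Car4 -1.42, mt-Atp6 -1.38, Hoxb4 -1.35, Cldn1 -1.34, Fgf8 -1.23. The rest were Slc2a1 -1.21, Ptprz1 -1.12, Neurog2 -1.07, Lhx1 -1.05, Pax6 -1.05, mt-Nd2 -1.02, Slc17a8 -1.02. The values of Slc6a4 and Prdm13 rest on groups near 0 (SE 0.585 and 0.563).

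Positive differences were found in 31 genes. They were largest in Neurod6 5.66, Emx1 4.34, Cntn2 4.09, Trim66 4.09, Atf5 3.56, Pax7 3.54, Hoxd11 3.39, Hoxb9 2.68, Hoxa10 2.47, where the value of Neurod6 depends on the prior count because it had 0 counts with SAG and no Hoxb1. Next came Wnt3a 2.23, Rspo3 2.04, Hoxd9 1.99, Barhl1 1.90, Tbr1 1.83, Cnpy1 1.81, Fosb 1.77, Mab21l1 1.60, Pax8 1.60. These were followed by Nhlh1 1.55, Myc 1.53, Hhip 1.51, Cdh5 1.5, Egr2 1.47, Foxa2 1.44, Gli1 1.43, Isl1 1.39, Eya2 1.25. The rest were Lhx9 1.24, Syt4 1.18, Olig2 1.05, Egr1 1.05. The values of Emx1, Pax7 and Hoxd11 also rest on groups near 0 and are less precise (SE 0.713, 0.402 and 0.973) than that of Cntn2 (SE 0.0636). Without Hoxb1, Emx1 and Pax7 had at most 2 and 4 counts in a library with SAG. Hoxd11 was at 0.0494 CPM with Hoxb1 and no SAG. Trim66 (SE 0.758) differed already without SAG, at 233 CPM without and 7.45 CPM with Hoxb1.

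The changes had opposite signs in 11 of these genes: Hoxb3 (1.94 without and -0.28 with Hoxb1), Dbx2 (0.28 without and -1.81 with Hoxb1), Ddx3y (0.26 without and -1.51 with Hoxb1), Hey2 (1.56 without and -0.09 with Hoxb1), Uty (0.36 without and -1.27 with Hoxb1), Olig2 (-0.18 without and 0.87 with Hoxb1), Eya2 (-1.09 without and 0.17 with Hoxb1), Gli1 (-0.14 without and 1.29 with Hoxb1), Myc (-0.81 without and 0.72 with Hoxb1), Hoxb9 (-0.92 without and 1.76 with Hoxb1), Cntn2 (-2.46 without and 1.63 with Hoxb1). Not every one of these single changes was called. Ddx3y and Uty lie on the Y chromosome, where Eif2s3y also fell with SAG among libraries with Hoxb1 (-1.46). Whether these are separate changes was not tested. No group had the 4 libraries needed to look for a single outlying library.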

How the results depend on the processing

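The count of 11810 called genes ranged from 11014 with DESeq2 to 12271 without a filter on low counts, and it was 11161 without chromosomes 8 and Y, a setting chosen after seeing the data. It ranged from 11279 to 11480 when each of the 6 libraries was left out. Of the calls, 92.7% to 99.9% were kept with the same direction under the alternatives, and 0 changed direction. With libraries thinned to equal depth 11318 genes were called. With the replicate number as a block, 11880 genes were called (5953 higher and 5927 lower) and 5944 differed between progenitors with and without Hoxb1, and among the genes named by rule the block changed the call of Gli1 alone (adjusted p = 0.000384). Upper-quartile scaling moved the median of all genes from 0.01 to 0.06 and the share of calls that were higher from 50.1% to 54.6%. The count of genes whose change differed with Hoxb1, 5759, was 4740 with DESeq2 and ranged from 5182 to 5845 when each library was left out. A pair of changes that were not called turned direction: with each library left out, Hhip ranged from -0.14 (without the library without SAG numbered 1) to 0.11, and Hoxb1 from -0.13 (without that numbered 3, adjusted p = 0.804) to 1.07. The cause was not tested. Depth limits the low genes, such as the Hox genes of groups 10 to 13, Neurod6 and Mixl1, which rest on few counts.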
